A study of Mus musculus with 24 samples.

Results

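Pro-B and pre-B cells from the bone marrow of mice that carry the BCR/ABLp190 oncogene were compared with the same cell stages of wild-type mice, before leukaemia had developed. The members are 7 arrays of the 24 in the series, chosen by their titles: 3 arrays of oncogene-bearing precursors with both copies of Pax5 (BCR/ABL precursors) and 4 arrays of wild-type precursors. Transcripts were read on Affymetrix arrays of mouse genes, with 1 array for each sample, and every gene was represented by the probe set with the highest mean over the 24 arrays. The table held 19938 genes, of which 19166 were autosomal, 742 X-linked and 9 Y-linked, and comparisons were made on the autosomal genes. The other arrays of the study are leukaemic marrows, B220+ marrow B cells and 3 arrays of precursors with the same oncogene and 1 disrupted Pax5 copy (heterozygous precursors, Pax5+/-).

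In the BCR/ABL precursors the oncogene was driven by the Sca1 promoter, which is active in stem and progenitor cells. The wild-type precursors carried no transgene. The labels give no strain, age, sort or purity for either group, and they describe the animals as kept in a conventional facility with exposure to common pathogens. The description of the series speaks of 3 mice for the wild-type precursors, where the labels list 4 samples, and the 4 were all kept. The labels call the replicates biological, and p-values measure the spread between these samples.

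BCR/ABLp190 is the short form of the fusion kinase of the Philadelphia chromosome, and it is the form typical of acute lymphoblastic leukaemia of B cell precursors. Pro-B cells assemble the immunoglobulin heavy chain gene and depend on interleukin-7. Once a heavy chain pairs with the surrogate light chain, large pre-B cells divide in a burst, after which small resting pre-B cells rearrange a light chain gene under the control of Pax5, Ikzf1 and other lineage factors. Loss of Pax5 or Ikzf1 is common in human leukaemia of this kind, and both factors are known to restrict glucose and energy supply in pre-B cells.

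The cells in both groups had the markers of B cell precursors. Igll1, which encodes a part of the surrogate light chain, had log2 levels of 12.99 to 13.19 in BCR/ABL precursors and 13.08 to 13.19 in wild-type precursors. Il7r, the interleukin-7 receptor chain, had 12.64 to 12.75 and 12.66 to 12.72, and Ebf1, a founding B lineage factor, 12.53 to 12.67 and 12.47 to 12.54. Rag1, a recombinase subunit, had 11.41 to 11.87 and 11.13 to 11.56. None of these genes passed the test. Among the other B lineage markers read, changes were -0.37 ± 0.32 for Vpreb1, -0.33 ± 0.24 for Dntt and -0.38 ± 0.15 for Kit. Those of Rag2 and Cd79b were 0.19 ± 0.24 and 0.08 ± 0.08. These did not pass the test either (adjusted p from 0.0789 for Kit to 0.556 for Rag2). Cr2 and Fcer2a, markers of mature B cells, lay between 5.49 and 6.22 on all 7 arrays, among the dim genes of the array. The level of Ms4a1 (CD20) was 8.43 to 9.15 in BCR/ABL precursors and 9.19 to 10.15 in wild type, and it fell by 0.86 ± 0.28 (adjusted p = 0.0480), a change that did not pass at matched brightness (-0.59, adjusted p = 0.194), a scale described below. Changes in the text are log2 differences, BCR/ABL minus wild type, with their SE from limma, and adjusted p-values come from Benjamini-Hochberg adjustment over all 19938 genes with a threshold of 0.05.

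The oncogene and Pax5 were read first. Pax5 had log2 levels of 11.93, 12.03 and 12.19 on BCR/ABL arrays 1 to 3 and 11.86, 11.81, 11.93 and 12.02 on wild-type arrays 1 to 4, and the groups overlapped. Its change of 0.14 ± 0.10 did not pass the test (adjusted p = 0.312). Abl1 and Bcr, the mouse genes of the 2 fusion partners, had changes of -0.18 ± 0.11 (adjusted p = 0.233) and 0.05 ± 0.09 (adjusted p = 0.688). That of Abl1 turned to 0.06 at matched brightness. Whether either probe set can read the human fusion transcript is not stated in the labels, and these levels are no check of them.

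The arrays differed in ways that bear on every comparison. Correlations over all probe sets were 0.992 to 0.995 within wild type, 0.980 to 0.986 within the BCR/ABL precursors and 0.966 to 0.985 between the groups. BCR/ABL array 1 lay nearer to the wild-type arrays than arrays 2 and 3 did. Neutrophil and precursor markers, averaged over 23 genes, had mean log2 levels of 10.33, 7.42 and 7.13 on the BCR/ABL arrays and 8.96, 8.86, 7.11 and 7.04 on the wild-type arrays. BCR/ABL array 1 and wild-type arrays 1 and 2 were thus high for neutrophil genes in both groups. Xist, the RNA that silences 1 X chromosome in female cells, had 6.24, 6.48 and 6.49 in the BCR/ABL precursors and 12.62, 12.70, 12.55 and 12.49 in wild type, with the Y-linked genes Eif2s3y, Kdm5d and Uty the other way round. All 3 BCR/ABL arrays are therefore from males and all 4 wild-type arrays from females, and genotype and sex cannot be told apart in these 7 arrays. The heterozygous precursors, which had 6.40, 5.79 and 12.68, were of both sexes, and a fit with the Xist level as a covariate was made over the 10 arrays. Its sex term rests on heterozygous array 3 against arrays 1 and 2, so sex cannot be told apart from whatever else is particular to that 1 array. Xist level and genotype also run together in the 7 arrays, so the covariate lowers the precision of the change in genes that do not follow Xist. A call lost with the covariate does not show that the change follows sex. Counts with the covariate are given with these limits.

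The groups differed along the whole range of brightness. In the fit on the deposited values, 2265 autosomal genes were higher (11.8%) and 2952 were lower (15.4%) in the BCR/ABL precursors, 5217 in all (27.2%). When the autosomal genes were split into 5 equal bands of mean level, the median change was 0.08 in the dimmest band, 0.14 and 0.10 in the next bands, and -0.23 and -0.21 in the brightest bands. The lower calls made up 29.4% of the brightest band and 0.496% of the dimmest, and the higher calls 22.3% of the second band, 8.53% of the dimmest and 4.57% and 3.70% of the 2 brightest. The quartiles of the arrays had the same form: the upper quartile over autosomal genes was 8.79, 8.67 and 8.61 on the BCR/ABL arrays and 8.97, 8.995, 8.97 and 8.91 in wild type, and the lower quartile 5.80, 5.83 and 5.83 against 5.70, 5.66, 5.69 and 5.76. Neither quartile overlapped between the groups. Arrays of the groups did not overlap in 19.5% of autosomal genes with BCR/ABL higher and in 22.9% with BCR/ABL lower.

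For this reason the counts of most lists are also given at matched brightness, and a gene called on the deposited values that did not pass there is named as such. Each of the 10 precursor arrays was corrected by the running median of its deviation over the 250 genes on either side of it in mean level, so that a change is read against genes of like brightness. On this scale 1573 autosomal genes were higher (8.21%) and 1627 lower (8.49%), 16.7% in all. The dimmest band then held 1.17% higher and 1.59% lower genes, the second 3.08% and 5.32%, and the brightest 11.3% and 10.5%. On both scales 833 genes rose (4.35%) and 1412 fell (7.37%). The share of higher genes among those called was 43.4% on the deposited values, 49.2% at matched brightness, 55.1% after quantile normalization, 47.9% after cyclic loess, 32.5% after median centring and 25.5% without the dimmest 2 bands. Below, "on both scales" means past the test on the deposited values and at matched brightness. Of 126 described genes past the test, 112 were past it on both scales with the same sign.

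**Figure D1:**
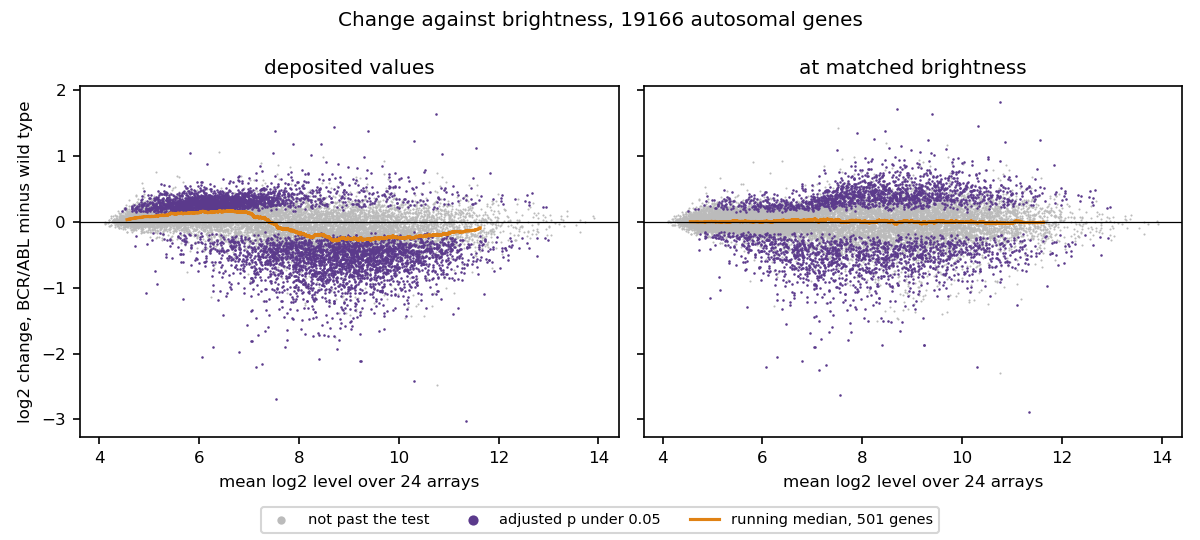
Log2 change of each autosomal gene, BCR/ABL minus wild-type precursors (vertical), against its mean log2 level over 24 arrays (horizontal), on the deposited values (left) and at matched brightness (right), with called genes in purple and the running median as a line. On the left the median runs above 0 in the dim bands (0.14 in the second) and below 0 in the bright bands (-0.23 in the fourth), and on the right it lies near 0.

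The count of calls changed when single arrays were left out. Left out in turn, BCR/ABL array 2 or 3 lowered the 5217 calls to 3267 or 2247, and wild-type array 1, 2 or 3 lowered them to 3085, 2869 or 2619, while without BCR/ABL array 1 there were 5831. Below, calls with 1 array left out are read on the deposited values unless matched brightness is named. With the Xist level as a covariate, 251 genes were higher (1.31%) and 807 lower (4.21%). The lists below are described by their counts beside the shares of all autosomal genes in the same brightness bands and beside the counts with the Xist covariate, and no list was tested as a set.

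Genes of natural killer (NK) cells made up much of the 12 largest falls. Ncr1, the activating receptor NKp46 of NK cells, had 6.45, 7.76 and 6.25 on the BCR/ABL arrays and 10.08, 9.47, 9.37 and 9.13 on the wild-type arrays. It fell by 2.69 ± 0.35 (fold 6.46, adjusted p = 0.00303). Arrays of the groups do not overlap in any of the 12 falls or 12 rises, since the rule that chose these genes asks for it. Gzma, a granzyme of cytotoxic granules, had 6.40, 7.79 and 6.40 against 9.36, 8.82, 8.97 and 8.89, a change of -2.15 ± 0.40 (adjusted p = 0.00699). The lectin-like receptors Klrb1f (-2.11), Klra8 (-2.06), Klra17 (-1.97) and Klri2 (-1.91) fell as well, with adjusted p-values of 0.0101, 0.00693, 0.00276 and 0.00265. The Klra genes are near-identical copies, so a probe set may read more than 1 of them. Klra17 (Ly49Q) is also known from plasmacytoid dendritic cells.

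The largest fall of all belonged to Ctse, which encodes the aspartic protease cathepsin E. Its log2 level was 10.55, 8.73 and 8.77 on BCR/ABL arrays 1 to 3 and 12.39, 12.32, 12.34 and 12.43 on wild-type arrays 1 to 4. Array 1 stood about midway between arrays 2 and 3 and the wild type, and the change was -3.02 ± 0.40 (fold 8.12, adjusted p = 0.00315) and -2.89 ± 0.39 at matched brightness. The heterozygous precursors had 12.01, 11.53 and 12.46, close to wild type, but the difference between the oncogene-bearing groups, -2.65 ± 0.43, did not pass the test (adjusted p = 0.111).

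Slc1a5, the neutral amino acid transporter that takes up glutamine, had 9.31, 9.51 and 9.51 in BCR/ABL precursors and 11.87, 11.78, 11.92 and 11.91 in wild type, both tightly grouped, a change of -2.42 ± 0.47 (fold 5.37, adjusted p = 0.00828). The SE also pools the spread of the heterozygous arrays. Emb (embigin), a membrane partner of monocarboxylate transporters, had 8.67, 6.53 and 6.11 against 9.58, 9.50, 8.89 and 8.86, and array 1 again lay nearest to wild type (change -2.11 ± 0.52, adjusted p = 0.018). Cacna2d1, an accessory subunit of voltage-gated calcium channels, had 6.98, 6.58 and 6.44 against 8.93, 9.16, 8.87 and 8.53 (-2.21 ± 0.47, adjusted p = 0.0114). The chemokine receptors Ccr2, known from monocytes, and Ccr9, known from plasmacytoid cells and gut homing, fell too, with changes of -2.09 ± 0.34 and -1.94 ± 0.39 (adjusted p = 0.00488 and 0.00922). All 12 falls were called on both scales. On the deposited values, leaving out 1 array ended the call of Emb alone. It was lost without BCR/ABL array 2 or 3 or wild-type array 2 (adjusted p from 0.0516 to 0.069). At matched brightness only BCR/ABL arrays were left out. There the calls lost were Emb without array 2 or 3 (adjusted p = 0.102 and 0.114) and Ccr9 without array 1 or 3 (0.055 and 0.0988). Cacna2d1 was lost without array 3 (adjusted p = 0.0575).

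The largest rises were smaller than the largest falls and held several interferon-induced genes. Ifi27l2a, an interferon-induced gene, had 9.28, 10.75 and 10.89 on the BCR/ABL arrays and 9.07, 9.05, 8.87 and 8.70 in wild type, with array 1 nearest to wild type, a change of 1.38 ± 0.34 (fold 2.61, adjusted p = 0.0175). Oas2, an antiviral synthetase of 2'-5' oligoadenylate, had 7.92, 8.14 and 7.71 against 6.92, 6.81, 6.96 and 6.93 (1.01 ± 0.15, adjusted p = 0.00387). Gbp9, a guanylate-binding protein with close paralogs, had 9.60, 9.70 and 9.21 against 8.76, 8.65, 8.44 and 8.66 (0.88 ± 0.25, adjusted p = 0.0297).

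Tnfrsf19, a receptor of the tumour necrosis factor family, had 10.94, 10.55 and 10.91 in BCR/ABL precursors and 9.78, 10.04, 10.09 and 9.87 in wild type, a rise of 0.86 ± 0.15 (adjusted p = 0.00618). Gfod1 had 9.77, 9.31 and 9.40 against 8.09, 7.86, 8.55 and 8.73 (1.19 ± 0.22, adjusted p = 0.00702). Uchl1, a ubiquitin hydrolase best known from neurons, had 8.67, 9.48 and 9.93 against 8.12, 8.10, 8.30 and 8.18 (1.19 ± 0.27, adjusted p = 0.0137). Levels of these genes in the BCR/ABL precursors spread over more than the wild-type arrays for Uchl1 and less for Gfod1.

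The other large rises belonged to genes that are not typical of B cells or have many copies. Unc5a, a netrin receptor, rose by 1.04 ± 0.19 (adjusted p = 0.00733), Rny3, a small noncoding Y RNA, by 1.13 ± 0.27 (adjusted p = 0.0177) and Rps3a1, a protein of the small ribosomal subunit with many pseudogenes, by 1.03 ± 0.19 (adjusted p = 0.00726). Pate11, of a family expressed in prostate and testis, rose by 0.90 ± 0.15 (adjusted p = 0.00479), Krtap10-10, a keratin-associated protein, by 0.84 ± 0.15 (adjusted p = 0.00614) and the vomeronasal receptor pseudogene Vmn2r-ps104 by 0.88 ± 0.24 (adjusted p = 0.0249), which did not pass at matched brightness (0.74, adjusted p = 0.0561). The other 11 rises were called on both scales. Leaving out 1 array ended the calls of Ifi27l2a without BCR/ABL array 2 or 3 (adjusted p from 0.0642 to 0.0698), Rny3 without BCR/ABL array 3 or wild-type array 3 (adjusted p from 0.051 to 0.0575), Vmn2r-ps104 without BCR/ABL array 2 or 3 or wild-type array 1 or 2 or 3 (adjusted p from 0.0575 to 0.0777) and Gbp9 without BCR/ABL array 1 or 2 or wild-type array 1 or 2 or 3 (adjusted p from 0.0553 to 0.0936).

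**Figure D2:**
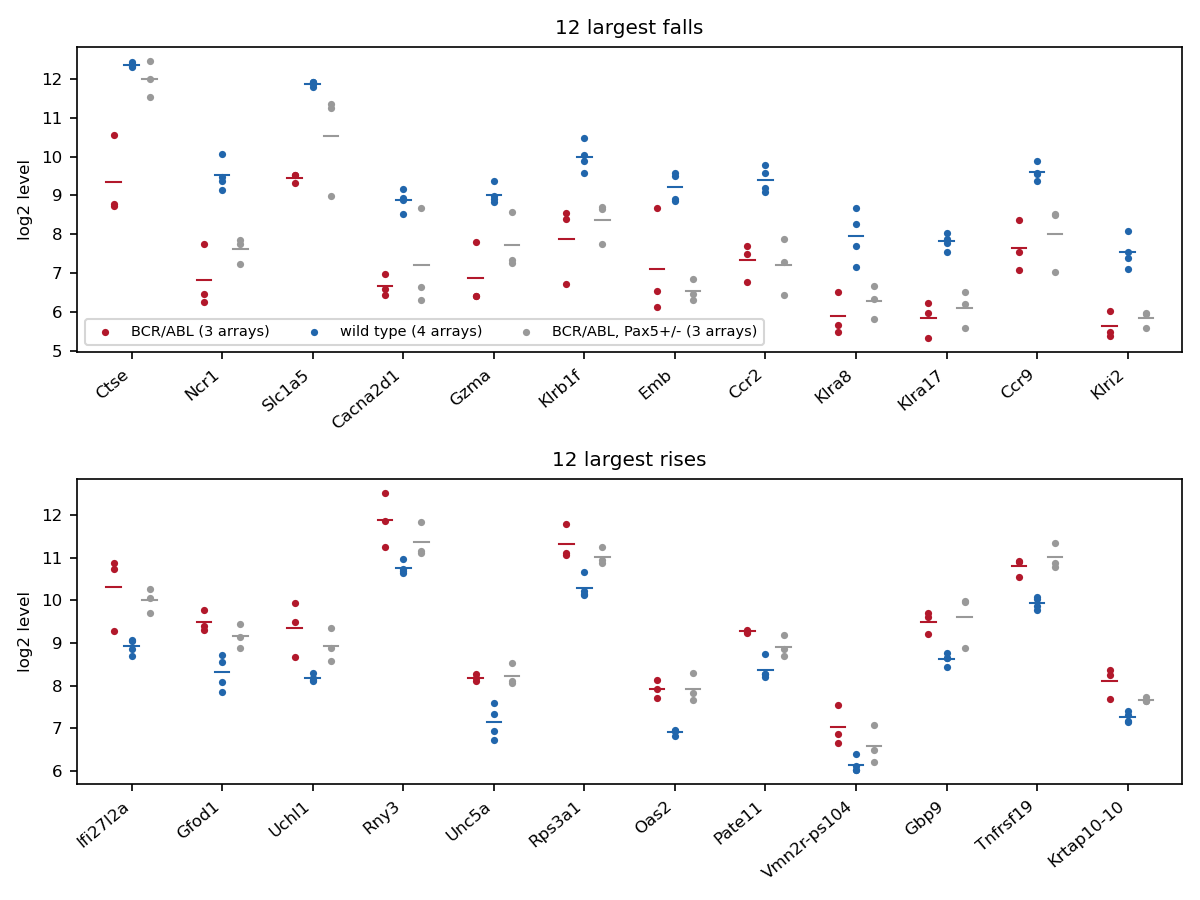
Log2 level (vertical, deposited values) of the 12 genes with the largest falls (top) and the 12 with the largest rises (bottom) on every array, with points for arrays and a bar for the group mean, in BCR/ABL, wild-type and heterozygous (Pax5+/-) precursors. For Ctse the BCR/ABL arrays lie at 10.55, 8.73 and 8.77, below all wild-type arrays, and the heterozygous arrays at 12.01, 11.53 and 12.46.

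Many genes of mitosis fell in the BCR/ABL precursors on the deposited values, with wide spread among the arrays. Of 48 genes that build the spindle, the kinetochore and the mitotic checkpoint, 27 fell and 0 rose, against 15.4% of all autosomal genes lower and 29.8% lower in the same brightness bands. The median change of the list was -1.11, where that of its bands was -0.21. At matched brightness 6 fell (12.5%), close to the 11.3% of the bands, with a median of -0.89, and all but 1 of the 48 had a negative change. The mean level of the list was 9.62, 9.35 and 8.56 on BCR/ABL arrays 1 to 3 and 10.22, 10.24, 10.35 and 10.20 on wild-type arrays 1 to 4. No BCR/ABL array overlapped with wild type, and array 3 was the lowest.

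The count of mitotic genes changed with the arrays and the covariate in the fit, and the cause was not tested. It was 5 without BCR/ABL array 3, 14 without BCR/ABL array 2, 14, 10 or 5 without wild-type array 1, 2 or 3, and 34 without BCR/ABL array 1. It was 47 when the 7 arrays were fitted alone and 45 with the Xist level as a covariate. The heterozygous precursors, which took part in the estimate of the spread, had means of 9.74, 9.62 and 8.32. The lowest of them is array 3, on which the sex term of the covariate fit rests.

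Dlgap5, a spindle protein, had 8.75, 8.44 and 7.63 on the BCR/ABL arrays and 9.66, 9.62, 9.81 and 9.53 on the wild-type arrays, a change of -1.38 ± 0.28 (fold 2.6, adjusted p = 0.00918). Ndc80, which attaches microtubules to the kinetochore, had 8.26, 7.60 and 7.18 against 8.71, 8.86, 9.17 and 8.79 (-1.20 ± 0.25, adjusted p = 0.0105). Cenpa, the histone variant of centromeres, had 10.35, 10.38 and 9.89 against 10.93, 10.84, 10.996 and 10.96 (-0.72 ± 0.13, adjusted p = 0.00618). In each gene array 3 was the lowest, and these genes were called on both scales. Bub3, a checkpoint protein, fell by 0.63 ± 0.12 (adjusted p = 0.00838), and its -0.40 ± 0.16 at matched brightness did not pass (adjusted p = 0.116).

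Promoters of mitotic genes are known for a cell cycle homology element that binds the DREAM and MuvB complexes, which hold these genes down in resting cells. The 6-base form TTTGAA was searched on both strands in the promoters of RefSeq (GRCm38.p6), from 250 bases before to 50 bases after each start. It was found in 29 of the 40 mitotic genes with a promoter in the table (72.5%), 6 of 40 genes of DNA replication (15%), and 20.2% of all 27025 genes (17.9% of 32851 promoters). Any 6-base match is frequent by itself, and a match is a description of the letters. The promoters of 3 genes with the element are shown, each as the 100 bases before the start on the strand of the gene, with the match in capitals. Bub3 was named by rule, and Cdc20, which activates the anaphase complex, and Prc1, which bundles the midzone of the spindle, were picked after their values were seen, as the next fallen genes by p with a match in the window. The windows are chr7:131560270-131560369 on the plus strand, chr4:118437344-118437443 on the minus strand and chr7:80294376-80294475 on the plus strand.
Bub3: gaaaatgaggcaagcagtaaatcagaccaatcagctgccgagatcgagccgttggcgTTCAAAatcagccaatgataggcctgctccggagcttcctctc
Cdc20: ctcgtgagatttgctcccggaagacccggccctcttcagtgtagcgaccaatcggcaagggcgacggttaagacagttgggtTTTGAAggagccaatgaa
Prc1: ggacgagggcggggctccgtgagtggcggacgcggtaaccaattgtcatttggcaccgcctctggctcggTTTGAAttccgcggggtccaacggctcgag
The match began 43, 18 and 30 bases before the start in Bub3, Cdc20 and Prc1, and in Bub3 it stands on the opposite strand, as TTCAAA. All 3 windows also hold CCAAT, the box bound by NF-Y. CCAAT was found on either strand in 31 of 40 mitotic genes (77.5%) and 41.1% of all genes.

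Cdc20 had 8.73, 8.67 and 8.46 on the BCR/ABL arrays and 9.65, 9.47, 9.75 and 9.67 on the wild-type arrays, a change of -1.01 ± 0.25 (adjusted p = 0.019; -0.75 at matched brightness, adjusted p = 0.098). Prc1 had 9.26, 8.57 and 7.58 against 9.72, 9.84, 9.90 and 9.77, -1.34 ± 0.43 (adjusted p = 0.0446; -1.08 at matched brightness, adjusted p = 0.118). In both genes array 3 was lowest and array 1 highest of the BCR/ABL arrays. The calls lost when 1 array was left out were those of Cdc20 without BCR/ABL array 2 or 3 or wild-type array 3 (adjusted p from 0.05 to 0.0714) and Prc1 without BCR/ABL array 2 or 3 or wild-type array 1 or 2 or 3 or 4 (adjusted p from 0.0696 to 0.157).

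Genes of DNA replication followed, with less spread. Of 48 genes 29 fell and 0 rose (median -0.66, bands -0.21), and 9 fell at matched brightness (median -0.44). Their bands held 29.4% lower and 4.71% higher genes (11.2% and 12.6% at matched brightness), and with the Xist covariate 32 fell and 0 rose. The list's mean was 9.39, 9.22 and 8.82 on the BCR/ABL arrays and 9.76, 9.84, 9.94 and 9.72 in wild type. Pole2, a subunit of the leading-strand polymerase, had 7.65, 7.36 and 6.78 against 8.61, 8.87, 8.97 and 8.43, a change of -1.46 ± 0.23 (fold 2.75, adjusted p = 0.00479). The clamp loader gene Rfc3 (-0.99 ± 0.16, adjusted p = 0.00479), the helicase gene Gins4 (-0.86 ± 0.13, adjusted p = 0.00437) and Orc2 (-0.74 ± 0.13, adjusted p = 0.0062), of the origin recognition complex, fell on both scales. The calls of this list went from 29 to 14, 9, 18, 15 and 14 without BCR/ABL arrays 2 and 3 and wild-type arrays 1, 2 and 3 in turn.

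Regulators of entry into the cycle were read next. Of 18 D cyclins, their kinases and inhibitors, 8 fell and 1 rose, with a median of -0.36, and 2 fell at matched brightness. Of all genes in the same bands 26.9% were lower and 6.52% higher (11.1% and 11.6% at matched brightness), and the Xist covariate gave 5 lower and 0 higher members. The kinase partner of D cyclins, Cdk4 (-0.58 ± 0.13, adjusted p = 0.0122), and the repressor that it inactivates, Rb1 (-0.39 ± 0.087, adjusted p = 0.0134), fell on both scales. Ccnd3, the D cyclin that large pre-B cells require, had 11.25, 11.22 and 11.28 against 11.85, 11.53, 11.75 and 11.71 (-0.46 ± 0.11, adjusted p = 0.0176), and E2f3, a factor that drives S phase genes, had a change of -0.87 ± 0.21 (adjusted p = 0.0161). Neither passed at matched brightness (E2f3 (adjusted p = 0.0618) and Ccnd3 (adjusted p = 0.111)). Calls among these 18 genes went from 9 to 3, 2, 5, 4 and 3 without BCR/ABL arrays 2 and 3 and wild-type arrays 1, 2 and 3 in turn. Of 27 replication-dependent histone genes 3 fell and 0 rose, among them H3c15 (-1.42 ± 0.32, adjusted p = 0.0135) and H2aw (-0.44 ± 0.10, adjusted p = 0.0122), and histone genes have near-identical copies. With the Xist covariate 12 fell and 0 rose, and the shares of the bands were 22.9% lower and 8.95% higher (10.4% and 10.4% at matched brightness). The histone calls went from 3 to 1 without BCR/ABL array 3. Calls that ended with 1 array left out were those of Ccnd3 without BCR/ABL array 2 or 3 or wild-type array 3 (adjusted p from 0.0507 to 0.0535), E2f3 without BCR/ABL array 3 (adjusted p = 0.06) and H3c15 without BCR/ABL array 3 (adjusted p = 0.057).

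Genes of growth and biosynthesis fell in larger shares than their bands on the deposited values. Of 35 genes of MYC and ribosome assembly, 25 fell and 1 rose (median -0.47, bands -0.20), and at matched brightness 14 fell and 1 rose (median -0.28). Genes of like brightness were lower in 28.9% and higher in 5.09% of cases (11.2% and 12.7% at matched brightness), and 10 fell and 0 rose with the Xist covariate. The mean of the list was 8.88, 8.90 and 8.71 against 9.31, 9.38, 9.35 and 9.30. Nop58, a core protein of the particles that modify ribosomal RNA, had 8.21, 7.48 and 7.41 on the BCR/ABL arrays and 9.05, 9.39, 9.26 and 9.18 on the wild-type arrays, a change of -1.52 ± 0.17 (fold 2.87, adjusted p = 0.00237). The RNA polymerase I subunit Polr1b (-0.94 ± 0.086, adjusted p = 0.00223) and the translation initiation factor Eif3b (-0.79 ± 0.10, adjusted p = 0.00276) fell as well. All 3 were called on both scales and without each single array. Of the list, calls went from 26 to 16 without BCR/ABL array 3.

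Ldha, the lactate dehydrogenase subunit that MYC is known to induce, had 10.93, 11.12 and 10.53 in BCR/ABL precursors and 11.94, 12.002, 11.99 and 11.88 in wild type, a change of -1.09 ± 0.13 (fold 2.13, adjusted p = 0.00245). Nop2, a methyltransferase of ribosomal RNA that was picked for its promoter after its values were seen, had 8.46, 8.56 and 8.17 against 9.02, 9.04, 9.02 and 8.96 (-0.61 ± 0.09, adjusted p = 0.00387). MYC and MAX bind the E-box CACGTG, which was found in 10 of 28 genes of this list (35.7%) and 8.09% of all genes (7.15% of promoters). The windows of 2 genes with the E-box are shown in the same form, chr7:46845704-46845803 on the plus strand and chr6:125131783-125131882 on the plus strand.
Ldha: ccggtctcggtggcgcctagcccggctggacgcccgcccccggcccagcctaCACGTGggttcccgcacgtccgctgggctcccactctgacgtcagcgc
Nop2: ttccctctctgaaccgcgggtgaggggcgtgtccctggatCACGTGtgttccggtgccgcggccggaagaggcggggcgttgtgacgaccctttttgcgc
The E-box began 48 bases before the start in Ldha and 60 in Nop2. The element reads the same on both strands, and other factors are known to bind it.

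The proteins of the ribosome itself were called in few cases. Of 52 genes 4 rose and 3 fell, and 6 rose and 2 fell at matched brightness. In the bands of the list 29.5% were lower and 3.75% higher (10.6% and 11.5% at matched brightness), and in the fit with the Xist covariate 1 were lower and 1 higher. Rpl38, of the large subunit, had 12.96, 13.06 and 13.20 against 12.62, 12.77, 12.66 and 12.50 and rose by 0.44 ± 0.08 (adjusted p = 0.00687). Ribosomal protein genes have many processed copies, so their probe sets may read more than 1 locus. The ribosomal calls went from 7 to 3, 4 and 4 without BCR/ABL array 3 and wild-type arrays 1 and 3 in turn.

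Enzymes that charge transfer RNA fell in 15 of 19 cases and rose in 0 (median -0.54), with 10 lower and 1 higher at matched brightness (median -0.30). The shares in the same bands were 30.1% lower and 4.07% higher (11.2% and 12.8% at matched brightness), and the members called with the Xist covariate were 0 lower and 0 higher. The enzymes for lysine, Kars (-0.68 ± 0.08, adjusted p = 0.00237), histidine, Hars (-0.55 ± 0.078, adjusted p = 0.00359), phenylalanine, Farsb (-0.48 ± 0.069, adjusted p = 0.00384), and glutamine, Qars (-0.47 ± 0.067, adjusted p = 0.00365), fell on both scales. Kars had 8.59, 8.60 and 8.29 on the BCR/ABL arrays and 9.18, 9.23, 9.17 and 9.12 on the wild-type arrays.

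Chaperones fell in 17 of 24 genes and rose in 0 (median -0.56), and 10 fell at matched brightness (median -0.34). Adding the Xist covariate gave 3 lower and 0 higher members, and the bands held 26.5% lower and 6.63% higher genes (10.8% and 11.3% at matched brightness). The 4 with the smallest p were all subunits of the chaperonin TRiC, which folds actin and tubulin. Cct8 had 9.14, 8.79 and 8.61 against 9.77, 9.99, 9.88 and 9.69, a change of -0.99 ± 0.13 (adjusted p = 0.00303). The others were Cct3 (-0.96 ± 0.10, adjusted p = 0.00234), Tcp1 (-0.76 ± 0.10, adjusted p = 0.00315) and Cct4 (-0.74 ± 0.085, adjusted p = 0.00237). The chaperone calls went from 17 to 9 without BCR/ABL array 3. Of 25 genes of the unfolded protein response 12 fell and 3 rose, and 9 fell and 1 rose at matched brightness. Their bands held 27.8% lower and 5.84% higher genes (11.1% and 11.9% at matched brightness), and with the Xist covariate 1 fell and 0 rose. Among those that fell were Creld2 (-1.06 ± 0.13, adjusted p = 0.00276), a stress-induced protein of the endoplasmic reticulum, the disulphide isomerases Pdia4 (-0.79 ± 0.12, adjusted p = 0.00387) and Pdia6 (-0.73 ± 0.12, adjusted p = 0.0046) and the chaperone Canx (-0.50 ± 0.081, adjusted p = 0.00488).

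Synthesis of nucleotides was among the lists with the largest share lower. Of 25 genes of nucleotide and one-carbon synthesis 20 fell and 0 rose (median -0.79), and 10 fell at matched brightness (median -0.56). Of all genes in the same bands 29.7% were lower and 4.84% higher (11.5% and 13.3% at matched brightness), and the Xist covariate gave 18 lower and 0 higher members. The genes that open and close the pathway to uridine, Cad (-0.75 ± 0.12, adjusted p = 0.00445) and Umps (-0.92 ± 0.12, adjusted p = 0.0029), fell on both scales. Adsl, of purine synthesis, fell by 0.85 ± 0.14 (adjusted p = 0.00479). Shmt2, which makes one-carbon units in mitochondria, had 7.64, 8.48 and 7.90 against 8.95, 9.21, 9.17 and 9.003 and fell by 1.08 ± 0.17 (adjusted p = 0.00479), with array 1 the lowest. Calls of the list went from 20 to 12, 9, 13, 12 and 12 without BCR/ABL arrays 2 and 3 and wild-type arrays 1, 2 and 3 in turn.

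Amino acid uptake and glutamine use fell in 11 of 20 genes and rose in 0 (median -0.43), with 6 lower at matched brightness. With the Xist covariate 4 fell and 0 rose, and the shares of the bands were 24.8% lower and 6.79% higher (9.98% and 10.6% at matched brightness). Besides Slc1a5, Bcat1, which transaminates branched-chain amino acids, had 7.56, 7.50 and 7.19 on the BCR/ABL arrays and 8.71, 8.95, 8.63 and 8.68 on the wild-type arrays, a change of -1.32 ± 0.14 (fold 2.5, adjusted p = 0.00234). The proline synthesis gene Aldh18a1 (-0.93 ± 0.10, adjusted p = 0.00234) and the aspartate transaminase Got1 (-0.99 ± 0.19, adjusted p = 0.00804) fell on both scales. The transporter Slc7a6 fell by 0.51 ± 0.095 (adjusted p = 0.00741) and did not pass at matched brightness (adjusted p = 0.0823). Calls among the 20 genes went from 11 to 7 each without BCR/ABL array 3 and wild-type arrays 1, 2, 3 and 4 in turn.

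Of 26 genes of sterol and fatty acid synthesis 15 fell and 0 rose (median -0.75, bands -0.17), and at matched brightness 12 fell and 1 rose (median -0.53). Genes of like brightness were lower in 27.3% and higher in 6.7% of cases (11.3% and 12.6% at matched brightness), and 9 fell and 0 rose with the Xist covariate. Idi1, which isomerises isopentenyl diphosphate, had 7.13, 7.56 and 6.81 against 8.48, 8.82, 8.77 and 8.50, a change of -1.48 ± 0.20 (fold 2.78, adjusted p = 0.00316). Fdft1, the squalene synthase, had 8.41, 8.62 and 8.10 against 9.41, 9.39, 9.89 and 9.62 (-1.20 ± 0.16, adjusted p = 0.00303). Of the same pathway, Hmgcs1 (-0.99 ± 0.11, adjusted p = 0.00236) and Cyp51 (-0.91 ± 0.11, adjusted p = 0.00276) fell. CCAAT, a partner site of the sterol factor SREBP, was found in 16 of 19 promoters of this list (84.2%) and in 41.1% of all genes.

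Mitochondrial and energy genes depended on the scale. Of 37 genes of the citric acid cycle and fatty acid oxidation 20 fell and 0 rose (median -0.31), whereas at matched brightness 7 fell and 4 rose (median -0.13). In the bands of the list 28.6% were lower and 5.31% higher (11.2% and 12.4% at matched brightness), and in the fit with the Xist covariate 4 were lower and 0 higher. Idh3a, of isocitrate dehydrogenase, had 8.82, 8.87 and 8.12 against 9.94, 9.86, 9.95 and 9.79 and fell by 1.28 ± 0.17 (fold 2.43, adjusted p = 0.00315). Enzymes that oxidise fatty acids, Echs1 (-0.92 ± 0.10, adjusted p = 0.00234), Acadm (-0.80 ± 0.11, adjusted p = 0.00315) and Hadhb (-0.62 ± 0.061, adjusted p = 0.00234), fell too, and all 4 genes fell on both scales. The list's calls went from 20 to 12 without BCR/ABL array 3.

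Of 75 mitochondrial ribosomal proteins 33 fell and 1 rose, and at matched brightness 14 fell (18.7%) and 4 rose (5.33%). The shares in the same bands were 27.5% lower and 6.96% higher (11.7% and 13% at matched brightness), and the members called with the Xist covariate were 5 lower and 0 higher. Those with the smallest p that fell on both scales were Mrpl45 (-0.82 ± 0.11, adjusted p = 0.0035), Mrps22 (-0.64 ± 0.082, adjusted p = 0.00282) and Mrps6 (-0.62 ± 0.082, adjusted p = 0.00315). Of 70 subunits of oxidative phosphorylation 16 fell and 0 rose, and at matched brightness 5 fell and 2 rose. Adding the Xist covariate gave 2 lower and 0 higher members, and the bands held 28.5% lower and 4.99% higher genes (10.9% and 11.7% at matched brightness). Their median turned from -0.10 to 0.08. Those that fell included Ndufv1 (-0.59 ± 0.077, adjusted p = 0.00296) and Ndufc2 (-0.53 ± 0.094, adjusted p = 0.00642) of complex I and Uqcrc2 (-0.49 ± 0.071, adjusted p = 0.00384) of complex III. The calls went from 34 to 21 without BCR/ABL array 3, for mitochondrial ribosomal proteins, and for oxidative phosphorylation from 16 to 10, 10, 9 and 9 without BCR/ABL array 3 and wild-type arrays 1, 2 and 3 in turn.

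Of 30 genes of glycolysis and glucose uptake 8 fell and 0 rose, and 4 fell and 3 rose at matched brightness, with a median of 0.00. Their bands held 24.4% lower and 9.04% higher genes (11.3% and 11.8% at matched brightness), and with the Xist covariate 2 fell and 0 rose. Pfkp, the platelet form of phosphofructokinase, fell by 0.78 ± 0.12 (adjusted p = 0.00402). Pdk1, which shuts pyruvate out of the citric acid cycle, fell by 0.83 ± 0.15 (adjusted p = 0.00688). Ldhb, the other lactate dehydrogenase subunit, fell by 0.36 ± 0.077 (adjusted p = 0.0117). Of 16 genes known as energy gatekeepers under PAX5 and IKZF1, 2 fell and 0 rose, and 1 rose at matched brightness. Of all genes in the same bands 24.3% were lower and 9.22% higher (11.3% and 11.7% at matched brightness), and the Xist covariate gave 1 lower and 0 higher members. Stk11, the kinase upstream of AMPK, was one of them on the deposited values (-0.26 ± 0.067, adjusted p = 0.0221), and at matched brightness its change was -0.08 ± 0.051 (adjusted p = 0.317). The glycolytic calls went from 8 to 4, 5 and 5 without BCR/ABL array 3 and wild-type arrays 2 and 3 in turn, and those of the gatekeepers from 2 to 5, 0, 0, 0, 1 and 0 without BCR/ABL arrays 1, 2 and 3 and wild-type arrays 1, 2 and 3 in turn. Leaving out 1 array ended the call of Stk11 without BCR/ABL array 2 or 3 or wild-type array 1 or 3 (adjusted p from 0.0555 to 0.0746).

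**Figure D3:**
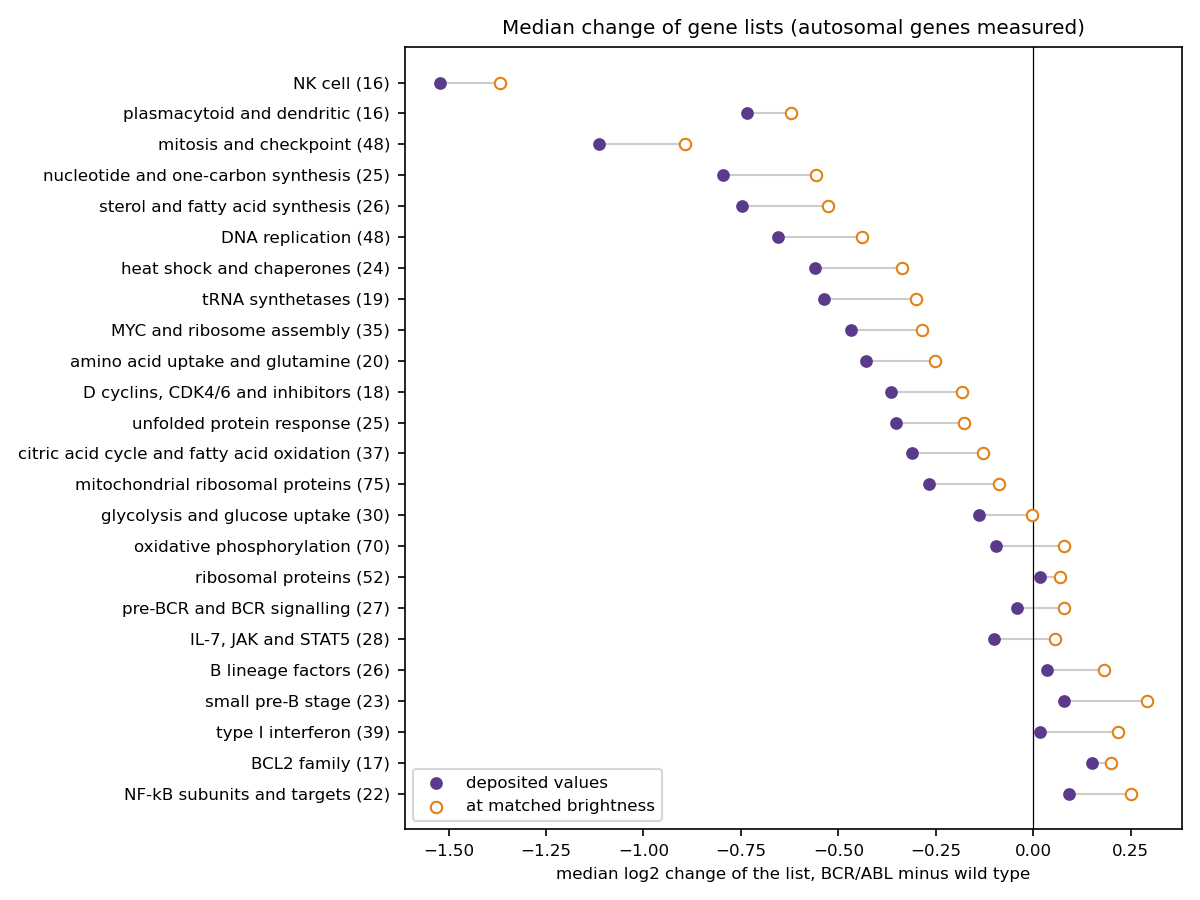
Median log2 change of each gene list, BCR/ABL minus wild-type precursors (horizontal), on the deposited values (filled) and at matched brightness (open), with the number of autosomal genes measured in brackets. NK cell genes lie lowest (-1.52 and -1.37), mitotic genes at -1.11 and -0.89, nucleotide synthesis at -0.79 and -0.56, sterol synthesis at -0.75 and -0.53, and the small pre-B list at 0.08 and 0.29.

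Genes of B cell identity were called in both directions. Of 26 B lineage factors 4 rose and 3 fell, and 8 rose and 1 fell at matched brightness (median 0.18). With the Xist covariate 3 fell and 1 rose, and the shares of the bands were 28.9% lower and 4.4% higher (10.7% and 11.5% at matched brightness). Spi1 (PU.1), which works in B and myeloid cells, had 10.95, 10.85 and 11.24 on the BCR/ABL arrays and 10.58, 10.40, 10.56 and 10.69 on the wild-type arrays, a rise of 0.46 ± 0.10 (adjusted p = 0.0138). Tcf3 (E2A), a founding factor of the lineage, had 11.56, 11.68 and 11.85 against 11.37, 11.22, 11.32 and 11.39 (0.37 ± 0.087, adjusted p = 0.0159). Spib, a relative of PU.1, rose by 0.28 ± 0.06 (adjusted p = 0.0117). Mef2c, a factor activated by pre-BCR signals, had 10.13, 10.32 and 9.9997 against 10.67, 10.60, 10.71 and 10.65 and fell by 0.51 ± 0.074 (adjusted p = 0.00387). These 4 genes were called on both scales. Among the lineage factors, calls went from 7 to 3 without BCR/ABL array 3.

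The list of the small pre-B stage, at which cells leave the cycle, had 2 higher and 3 lower of 23, and 7 higher and 0 lower at matched brightness (median 0.29). Genes of like brightness were lower in 29.6% and higher in 3.82% of cases (10.7% and 11.7% at matched brightness), and 1 fell and 4 rose with the Xist covariate. Btg2, an antiproliferative gene, had 12.44, 12.35 and 12.66 against 11.98, 12.03, 12.13 and 12.13 and rose by 0.42 ± 0.089 (adjusted p = 0.0116) on both scales. Irf8, which also marks dendritic cells, had a change of -0.69 ± 0.20 (adjusted p = 0.0303) and -0.58 ± 0.21 at matched brightness (adjusted p = 0.0849), and Cd22, an inhibitory co-receptor, -0.40 ± 0.10 (adjusted p = 0.018) and -0.16 ± 0.10 (adjusted p = 0.301). The list of the pro-B stage had 0 higher and 1 lower of 26: Meis1, a homeobox gene of progenitors (-0.48 ± 0.15, adjusted p = 0.037). At matched brightness 2 of this list were higher and 1 was lower. In the bands of the list 23.9% were lower and 8.54% higher (10.8% and 11.1% at matched brightness), and in the fit with the Xist covariate 4 were lower and 2 higher. Of 28 genes of immature and mature B cells 1 was higher and 4 were lower, and 2 and 2 at matched brightness. The shares in the same bands were 26.2% lower and 7.33% higher (11.2% and 11.6% at matched brightness), and the members called with the Xist covariate were 0 lower and 1 higher. Bank1, an adaptor of the B cell receptor, had 7.92, 8.09 and 8.51 against 9.27, 9.38, 9.10 and 9.33 and fell by 1.10 ± 0.22 (fold 2.14, adjusted p = 0.00924), and the desaturase Scd1 (-1.17 ± 0.20, adjusted p = 0.00558) fell too.

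Genes known to be activated by PAX5 rose in 2 and fell in 2 of 24 cases (6 and 1 at matched brightness), and those known to be repressed by it rose in 0 and fell in 4 of 28 (1 and 5). The bands of the activated genes held 29.2% lower and 4.64% higher (11.1% and 12.3% at matched brightness), and with the Xist covariate 3 fell and 2 rose. For the repressed genes, the bands held 22.8% lower and 9.6% higher (10.4% and 10.8% at matched brightness), and with the Xist covariate 3 fell and 1 rose. Among the activated genes Cd79a, a signalling chain of the B cell receptor, rose by 0.32 ± 0.093 (adjusted p = 0.0316), while the protease Capn2 fell by 0.78 ± 0.079 (adjusted p = 0.00234). Among the repressed genes, besides Emb and Ccr2, Cd28, a co-receptor of T cells, fell by 0.69 ± 0.14 (adjusted p = 0.0103). Calls went from 5 to 3 each without BCR/ABL arrays 2 and 3 and wild-type array 1 in turn, for the small pre-B list, from 5 to 2 without BCR/ABL array 2 for immature and mature B cells, from 1 to 3, 0, 0, 0 and 0 without BCR/ABL arrays 1 and 3 and wild-type arrays 1, 2 and 3 in turn for pro-B cells, from 4 to 2 each without BCR/ABL array 3 and wild-type arrays 1, 2 and 3 in turn for the genes PAX5 activates and from 4 to 7 without BCR/ABL array 1 for those it represses. The calls lost when 1 array was left out were those of Meis1 without BCR/ABL array 2 or 3 or wild-type array 1 or 2 or 3 or 4 (adjusted p from 0.059 to 0.136), Irf8 without BCR/ABL array 1 or 3 or wild-type array 1 or 2 or 3 (adjusted p from 0.0527 to 0.113), Cd22 without BCR/ABL array 2 (adjusted p = 0.0617), Cd79a without BCR/ABL array 3 or wild-type array 1 or 2 or 3 (adjusted p from 0.0696 to 0.0929) and Tcf3 without BCR/ABL array 3 (adjusted p = 0.0626).

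Genes of several signalling pathways were called in both directions. Of 28 genes of interleukin-7, JAK and STAT5 signalling, 6 fell and 3 rose, and 3 fell and 4 rose at matched brightness, where the median turned from -0.10 to 0.06. Adding the Xist covariate gave 4 lower and 3 higher members, and the bands held 26.1% lower and 6.05% higher genes (10.6% and 11.5% at matched brightness). Socs2, a feedback inhibitor that STAT5 induces, had 8.37, 9.10 and 8.24 on the BCR/ABL arrays and 9.83, 10.13, 9.93 and 9.47 on the wild-type arrays, a change of -1.27 ± 0.23 (fold 2.41, adjusted p = 0.00634). Bcl2l1, the survival gene of BCL-XL and also known as a STAT5 target, had 10.57, 10.42 and 10.46 against 10.06, 10.02, 10.11 and 10.14 and rose by 0.40 ± 0.079 (adjusted p = 0.00854). Jak2, a kinase of cytokine receptors, had 8.68, 8.40 and 7.87 against 9.35, 9.40, 9.22 and 9.09 (-0.95 ± 0.19, adjusted p = 0.00989), and Jak1, which signals from the interleukin-7 receptor, fell by 0.49 ± 0.11 (adjusted p = 0.0145). These 4 genes were called on both scales. Calls of the list went from 9 to 3, 5 and 4 without BCR/ABL array 3 and wild-type arrays 2 and 3 in turn.

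Of 27 genes of pre-BCR and BCR signalling 4 fell and 2 rose, and 1 fell and 8 rose at matched brightness (median -0.04 and 0.08). Their bands held 28.5% lower and 5.04% higher genes (10.9% and 11.8% at matched brightness), and with the Xist covariate 1 fell and 3 rose. Fyn, a kinase of the SRC family, had 9.09, 9.34 and 8.71 against 10.22, 10.16, 10.20 and 10.05 and fell by 1.11 ± 0.13 (fold 2.16, adjusted p = 0.00237) on both scales. The phospholipase of the B cell receptor, Plcg2 (-0.36 ± 0.072, adjusted p = 0.00897), and the phosphatase SHP-1, Ptpn6 (-0.33 ± 0.07, adjusted p = 0.0112), fell on the deposited values and did not pass at matched brightness (0.0556 and 0.0655). Of 27 genes of ERK feedback 6 fell and 3 rose, and 3 fell and 5 rose at matched brightness. Of all genes in the same bands 21.9% were lower and 11.4% higher (11.4% and 11.4% at matched brightness), and the Xist covariate gave 5 lower and 0 higher members. The RAS inhibitor Spred1 (-1.18 ± 0.17, adjusted p = 0.00387), the ERK-induced factor Etv5 (-0.72 ± 0.092, adjusted p = 0.00276) and the G protein regulator Rgs1 (-0.79 ± 0.14, adjusted p = 0.0062) fell, whereas Spred3 (0.39 ± 0.079, adjusted p = 0.00953), a relative of Spred1, rose.

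Of 33 genes of PI3K, AKT and FOXO signalling 4 fell and 3 rose, and 2 fell and 5 rose at matched brightness, with medians of -0.09 and 0.13. With the Xist covariate 0 fell and 1 rose, and the shares of the bands were 27.5% lower and 6.44% higher (11.4% and 12.3% at matched brightness). The AKT phosphatase Phlpp2 (-0.67 ± 0.12, adjusted p = 0.00625) fell, and Irs2 (0.47 ± 0.095, adjusted p = 0.00929), an adaptor of insulin receptors and a FOXO target, rose. Of 22 subunits and targets of NF-kB 1 rose and 1 fell, and 6 rose and 1 fell at matched brightness (median 0.25). Genes of like brightness were lower in 25.6% and higher in 7.67% of cases (11% and 11.4% at matched brightness), and 0 fell and 0 rose with the Xist covariate. Nfkb2 rose by 0.35 ± 0.10 (adjusted p = 0.0343) and Traf1, a signalling adaptor, fell by 0.38 ± 0.088 (adjusted p = 0.0154). Calls went from 9 to 5, 4, 5 and 5 without BCR/ABL arrays 2 and 3 and wild-type arrays 1 and 3 in turn, for ERK feedback, from 7 to 3 each without BCR/ABL arrays 2 and 3 and wild-type arrays 1, 2 and 3 in turn for PI3K, AKT and FOXO, and from 2 to 5, 0, 1, 1 and 1 without BCR/ABL arrays 1 and 3 and wild-type arrays 1, 2 and 3 in turn for NF-kB. Calls that ended with 1 array left out were those of Jak1 without BCR/ABL array 3 (adjusted p = 0.0608), Nfkb2 without BCR/ABL array 2 or 3 or wild-type array 1 or 2 or 3 (adjusted p from 0.0566 to 0.0978) and Traf1 without BCR/ABL array 3 (adjusted p = 0.0514).

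The BCL2 family, which decides on cell death at mitochondria, had more higher than lower genes on both scales: 6 of 17 rose and 2 fell, and 8 rose and 1 fell at matched brightness. In the bands of the list 24.2% were lower and 9.67% higher (11.7% and 11.9% at matched brightness), and in the fit with the Xist covariate 1 were lower and 3 higher. The rising genes were of both kinds. Bmf, a death-promoting BH3-only gene, had 10.39, 10.53 and 10.71 on the BCR/ABL arrays and 9.72, 9.67, 9.86 and 10.04 on the wild-type arrays, a rise of 0.72 ± 0.13 (fold 1.65, adjusted p = 0.00594). Bbc3 (PUMA), another BH3-only gene, rose by 0.33 ± 0.057 (adjusted p = 0.00594) and Bnip3l, known from mitophagy, by 0.32 ± 0.054 (adjusted p = 0.0058). Bcl2l1, described above, protects cells. Bcl2l13 fell by 0.45 ± 0.079 (adjusted p = 0.00616) and did not pass at matched brightness (adjusted p = 0.0534). Of 24 targets of p53, 5 rose and 2 fell, and 2 rose and 2 fell at matched brightness, and the p53 calls went from 7 to 4 each without BCR/ABL array 3 and wild-type arrays 1 and 3 in turn. The shares in the same bands were 18.6% lower and 13.7% higher (10.9% and 10.2% at matched brightness), and the members called with the Xist covariate were 0 lower and 2 higher.

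Type I interferon genes rose in part. Of 39 genes 7 rose and 4 fell, and 9 rose and 1 fell at matched brightness (median 0.22). Adding the Xist covariate gave 1 lower and 2 higher members, and the bands held 25.9% lower and 7.96% higher genes (11.4% and 12.3% at matched brightness). The list's mean was 8.27, 8.42 and 8.22 on the BCR/ABL arrays and 8.21, 8.31, 8.22 and 8.15 in wild type, and these overlap. Oasl1, of the same antiviral family as Oas2, had 8.04, 8.73 and 8.53 on BCR/ABL arrays 1 to 3 and 7.81, 7.62, 7.65 and 7.75 on wild-type arrays 1 to 4, a rise of 0.73 ± 0.16 (fold 1.66, adjusted p = 0.0117). Rtp4, an interferon-induced chaperone of receptors, had 7.50, 7.79 and 7.48 against 6.90, 7.03, 6.97 and 6.52 (0.74 ± 0.14, adjusted p = 0.00782). Ifit1, which binds viral RNA, had 6.40, 6.43 and 6.41 against 5.92, 6.10, 5.96 and 5.74 (0.48 ± 0.10, adjusted p = 0.0113) and did not pass at matched brightness (0.36, adjusted p = 0.0761). The interferon calls went from 11 to 6, 6 and 7 without BCR/ABL array 3 and wild-type arrays 1 and 3 in turn.

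Interferon acts through the complex ISGF3, which binds 2 copies of GAAA set 2 bases apart. This pair, GAAA, any 2 bases and GAAA again, was found on either strand in 14 of 28 genes of the interferon list with a promoter (50%), in 1 of the 4 of them that were higher in BCR/ABL precursors, and in 3.99% of all genes (3.44% of promoters). Ifit1 is the 1 with a match, and its window lies at chr19:34640789-34640888 on the plus strand.
Ifit1: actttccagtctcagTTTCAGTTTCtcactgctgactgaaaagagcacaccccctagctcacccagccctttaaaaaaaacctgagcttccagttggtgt
The match begins 85 bases before the start and stands on the opposite strand, as TTTCAGTTTC. In the other 3 promoters these letters are not in the window.

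**Figure D4:**
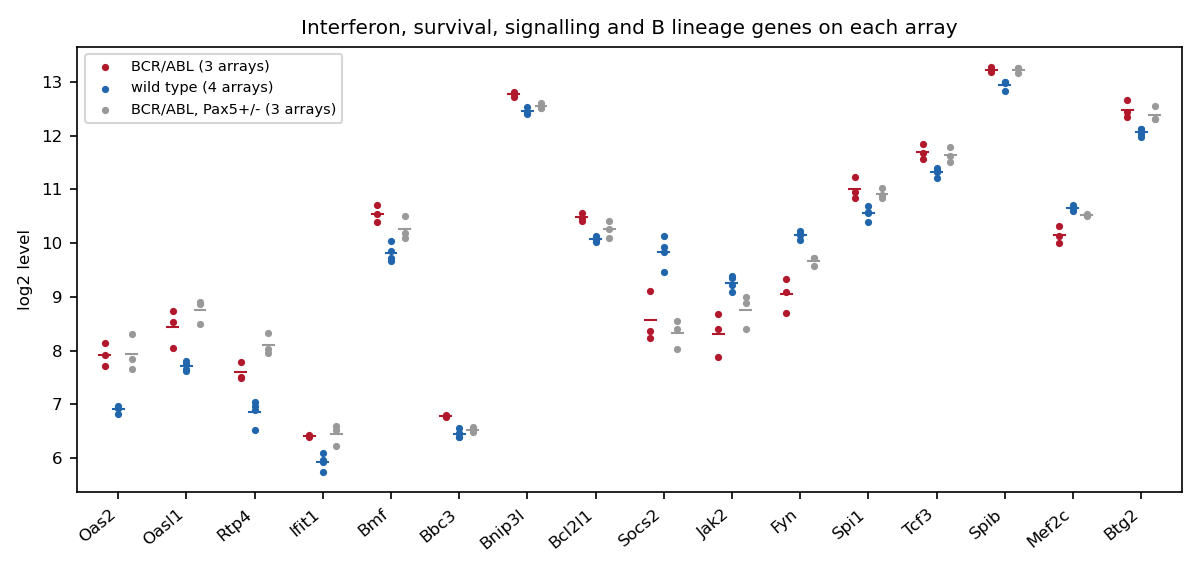
Log2 level (vertical, deposited values) of interferon, survival, signalling and B lineage genes on every array, with points for arrays and a bar for the group mean, in BCR/ABL, wild-type and heterozygous (Pax5+/-) precursors. Oas2 lies at 7.92, 8.14 and 7.71 in BCR/ABL precursors above 6.92, 6.81, 6.96 and 6.93 in wild type, and Fyn at 9.09, 9.34 and 8.71 below 10.22, 10.16, 10.20 and 10.05.

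Markers of other cell types were read because no purity is given. In bulk RNA, fewer cells of a type and less RNA per cell cannot be told apart. Of 16 autosomal NK cell markers 14 fell and 0 rose, and 12 fell at matched brightness (median -1.52 and -1.37). Their bands held 13.8% lower and 16.8% higher genes (10.5% and 9.18% at matched brightness), and with the Xist covariate 8 fell and 0 rose. The list's mean was 6.56, 7.27 and 6.36 on the BCR/ABL arrays and 8.49, 8.11, 7.997 and 7.75 in wild type, without overlap, and the heterozygous precursors had 7.09, 7.42 and 6.59. The NK1.1 gene Klrb1c (-1.59 ± 0.29, adjusted p = 0.00652) and the NKG2D gene Klrk1 (-1.56 ± 0.28, adjusted p = 0.00658) fell. The part of NK cells in other results was not tested.

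Of 16 plasmacytoid and dendritic markers 7 fell and 1 rose (median -0.73), and 5 fell and 1 rose at matched brightness, with list means of 8.57, 9.03 and 8.47 against 9.55, 9.37, 9.28 and 9.39. Of all genes in the same bands 24.3% were lower and 9.22% higher (11.3% and 11.7% at matched brightness), and the Xist covariate gave 9 lower and 0 higher members. The plasmacytoid marker Pacsin1 (-0.78 ± 0.12, adjusted p = 0.0042) and the DC-SIGN gene Cd209a (-1.73 ± 0.43, adjusted p = 0.0184) fell. Ccr9 and Irf8, named above, belong to this list, as does Spib, which rose. Of 15 T cell markers 3 fell and 0 rose, and 4 fell and 2 rose at matched brightness. With the Xist covariate 1 fell and 0 rose, and the shares of the bands were 14% lower and 17.5% higher (10.6% and 9.21% at matched brightness). A chain of the T cell receptor complex, Cd3g (-1.02 ± 0.20, adjusted p = 0.00949), fell, while Cd3e had 7.69 to 8.05 in BCR/ABL precursors and 7.31 to 7.67 in wild type. Calls went from 8 to 5, 3, 4, 4 and 3 without BCR/ABL arrays 1 and 3 and wild-type arrays 1, 2 and 3 in turn, for plasmacytoid and dendritic markers, and from 3 to 1 each without BCR/ABL array 3 and wild-type array 3 in turn for T cell markers. Leaving out 1 array ended the call of Cd209a without BCR/ABL array 3 or wild-type array 3 (adjusted p from 0.0522 to 0.0735).

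None of the 23 neutrophil markers and none of the 14 erythroid markers passed the limma test in either direction, where at an unadjusted p under 0.05 there were 0 and 2. The bands of the neutrophil list held 21.4% lower and 12% higher genes and those of the erythroid list 23.1% and 11%, and with the Xist covariate neither list had a call. Camp, a granule protein with the smallest p of the neutrophil list, had 11.81, 7.89 and 7.60 against 8.61, 9.001, 7.36 and 7.44, and its change of 0.99 ± 0.90 turned to -0.36 without BCR/ABL array 1. Left out singly, BCR/ABL array 1 gave 6 erythroid and 1 neutrophil call and BCR/ABL array 2 gave 1 erythroid call. Erythroid means were 9.17, 7.92 and 7.89 against 8.28, 8.44, 8.08 and 8.38, with BCR/ABL array 1 the highest. Array 1 thus differed from arrays 2 and 3 in neutrophil and erythroid genes, and it was nearer to wild type in Ctse, Emb, Ifi27l2a and the mitotic genes. The part of these cells in the values of array 1 was not tested. Without array 1 the comparison called 2531 genes higher and 3300 lower.

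**Figure D5:**
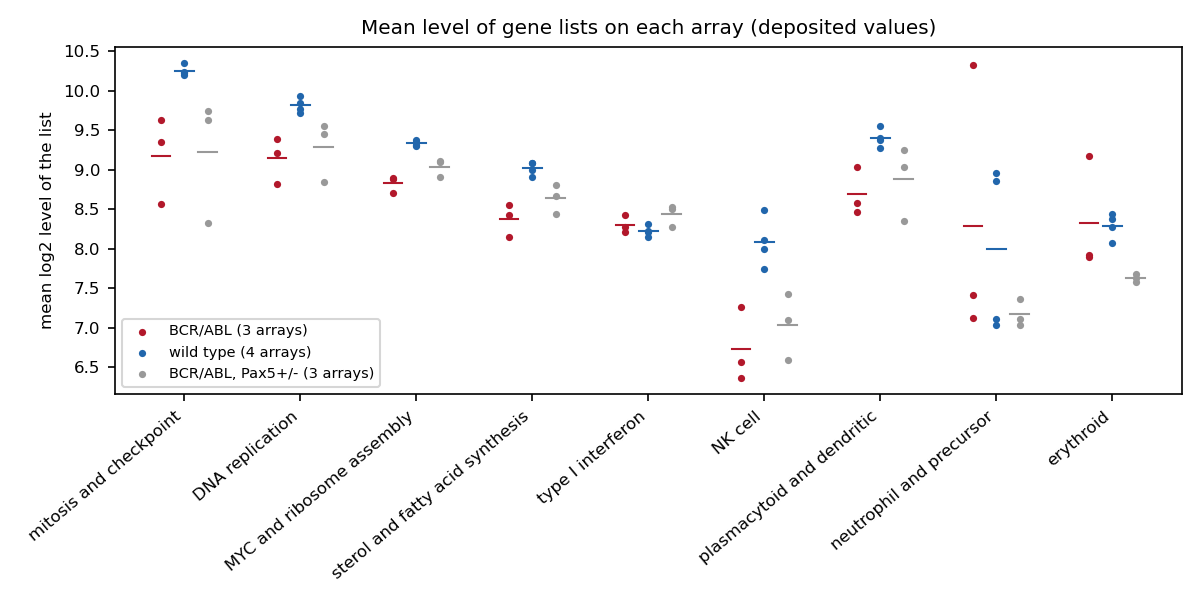
Mean log2 level (vertical, deposited values) of selected gene lists on every array of the 3 precursor groups, with points for arrays and a bar for the group mean. NK cell genes lie at 6.56, 7.27 and 6.36 in BCR/ABL precursors and 8.49, 8.11, 7.997 and 7.75 in wild type, and neutrophil genes stand at 10.33, 7.42 and 7.13 and 8.96, 8.86, 7.11 and 7.04.

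The heterozygous precursors, which carry the same oncogene with 1 Pax5 copy, are the group most like the BCR/ABL precursors. Against the same 4 wild-type arrays, 242 autosomal genes were higher (1.26%) and 557 lower (2.91%) in the heterozygous precursors. The comparisons share their controls, so the values are set side by side. For Socs2 the changes were -1.27 in BCR/ABL and -1.51 in heterozygous precursors, for Fyn -1.11 and -0.49, for Slc1a5 -2.42 and -1.34, for Ncr1 -2.69 and -1.90 and for Oas2 1.01 and 1.02. Median changes of lists were -1.11 and -1.06 for mitosis, -0.47 and -0.30 for MYC and ribosome assembly, and -1.52 and -1.09 for NK cells. They were -0.75 and -0.26 for sterol synthesis, -0.27 and -0.09 for mitochondrial ribosomal proteins and 0.02 and 0.23 for interferon genes. Signs were opposite for neutrophil (0.28 and -0.75) and erythroid markers (0.06 and -0.66), and no difference of medians was tested.

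Compared directly, the oncogene-bearing groups differed in 5 autosomal genes (0.0261%), with 2761 at an unadjusted p under 0.05 (14.4%). Hdac11, a histone deacetylase, had 7.98, 7.93 and 8.14 in BCR/ABL and 7.16, 7.17 and 7.11 in heterozygous precursors, a difference of 0.87 ± 0.074 (adjusted p = 0.0105). Edaradd, an adaptor of the ectodysplasin receptor, had 9.05, 9.35 and 9.56 and 8.21, 7.84 and 7.72 (1.40 ± 0.14, adjusted p = 0.0237). Smoc1, a secreted calcium-binding protein, had 6.72, 6.66 and 7.03 and 8.15, 7.79 and 8.20 (-1.24 ± 0.14, adjusted p = 0.0272), Synpo2, an actin-binding protein, 6.13, 6.19 and 6.51 and 7.24, 7.30 and 7.50 (-1.07 ± 0.11, adjusted p = 0.0257), and Rassf2, a RAS-associated protein, 10.01, 10.01 and 10.01 and 10.68, 10.51 and 10.54 (-0.56 ± 0.065, adjusted p = 0.0284).

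At matched brightness the difference of Rassf2 was -0.44 ± 0.074 and did not pass (adjusted p = 0.109), and the other 4 genes passed. The 5 genes were called on these same arrays, so the separation of the oncogene-bearing groups there adds no support. Wild-type levels were 9.35, 9.39, 9.40 and 9.44 for Edaradd and 6.57, 6.51, 6.46 and 6.80 for Smoc1. Deviations of same-numbered arrays of the oncogene-bearing groups correlated at 0.207 to 0.262, which is no proof of pairing. With the replicate number as a block 0 genes were called in limma (2606 at an unadjusted p under 0.05). The adjusted p-values of the 5 genes then lay from 0.0537 to 0.193. This block also tied wild-type arrays by number, so its result does not rest on the pairing of the oncogene-bearing groups alone. Left out singly, BCR/ABL array 1 or 2 gave 3 or 1 genes, and heterozygous array 1, 2 or 3 gave 1, 134 or 16.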

How the data were processed

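RNA of 24 mouse samples was measured on Affymetrix mouse gene arrays, after Trizol extraction and biotin labelling per the labels' protocols. The table deposited by the authors holds log2 values for each probe set. RMA in oligo produced them, per the submitters' processing notes, and neither versions nor the set of arrays normalized together are given in the sources used here. RMA subtracts background, gives all arrays 1 distribution by quantiles and combines the probes of a set. Of 35556 probe sets, 21789 had 1 gene symbol in the platform annotation, 1621 had several and 12146 none. Those with 1 symbol were used, and the probe set with the highest mean over 24 arrays stood for a gene. RefSeq (GRCm38.p6) gave chromosomes, matched by gene ID for 21698 probe sets.

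Groups were compared by limma (version 3.58.1, under R 4.3.3; lmFit, then contrasts.fit and eBayes; two-sided) on the 10 precursor arrays, which share 1 estimate of the spread, with Benjamini-Hochberg adjustment over all genes, a threshold of 0.05, no filter on dim genes and no minimum fold. Matched brightness, added after the data were seen, subtracts from each array the running median, over the 250 autosomal genes on either side in mean level, of its deviation from the mean of the 10 arrays. The fit was run on simulated data with independent noise and added changes of known size. These data lacked the shift with brightness and the sex difference of the arrays, so they do not check the reported calls. The number of arrays limits the precision: 3 arrays against 4 have 35 splits, so no exact test over arrays can go below p = 0.0571, and none is printed.

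Genes were named by rule: Pax5 with the fusion partners Abl1 and Bcr, then the 12 largest rises and falls among called autosomal genes above the dimmest band and without overlap between groups (antigen receptor segments, unnamed gene models, miRNA and snoRNA genes left out), and up to 4 members of each list with the smallest adjusted p. Identity markers, promoter genes and genes that differ between the oncogene-bearing groups are named beside it. The groups compared, the lists, among them those of PAX5 targets, and the tests were chosen with earlier results of these data known.

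Deviations from the group means of same-numbered arrays correlated at 0.207, 0.219 and 0.262 between BCR/ABL and heterozygous precursors, each over the limit set for pairing. Between BCR/ABL and wild-type precursors they correlated at 0.306, -0.260 and 0.130, and these groups were left unpaired in the reported fit. Any pairing rests on these values alone, as no label ties these mice by litter or date. Differently numbered arrays correlated at -0.353 to 0.139 between BCR/ABL and heterozygous precursors. Between BCR/ABL array 1 and wild-type array 2 the value was 0.443, and between BCR/ABL array 3 and wild-type array 4 it was 0.409. Values of this size are therefore no proof of pairing. Alternatives were other scalings, arrays, weights and filters, a replicate block and the Xist level as a covariate. The replicate block also joined wild-type arrays 1, 2 and 3 with the same-numbered arrays of the oncogene-bearing groups. Its results thus do not rest on the pairing of BCR/ABL with heterozygous precursors alone.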

Additional observations from a re-analysis of the deposited data

Results flagged for a closer look

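Among the 4 wild-type arrays, the gap of the farthest array to its nearest neighbour, divided by the range of the group, lay above Dixon's critical value for 7 of 130 genes and 1 of 44 lists. Chance alone puts about 1 in 20 groups there, or 6.5 of these genes and 2.2 of these lists. The ratio was 0.836 for Rps3a1 (10.21, 10.66, 10.15 and 10.13 on arrays 1 to 4), 0.865 for Pate11 (8.26, 8.20, 8.27 and 8.75), 0.868 for Rfc3 (10.21, 10.22, 10.46 and 10.19) and 0.862 for Qars (10.47, 10.45, 10.45 and 10.45). It was 0.892 for Spib (12.98, 12.83, 12.997 and 12.99), 0.887 for Traf1 (6.91, 6.70, 6.69 and 6.68), 0.872 for Cd3g (7.69, 7.58, 7.60 and 6.89) and 0.895 for the mean of the B lineage factors (11.11, 11.001, 11.10 and 11.10).

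The 5 autosomal genes that differed directly between BCR/ABL and heterozygous precursors, by 1.40 ± 0.14 for Edaradd, 0.87 ± 0.074 for Hdac11, -0.56 ± 0.065 for Rassf2, -1.24 ± 0.14 for Smoc1 and -1.07 ± 0.11 for Synpo2, did so by the direct test of that difference. Against wild type the changes were -0.07 and -1.47 for Edaradd, 0.21 and -0.66 for Hdac11, -0.18 and 0.38 for Rassf2, 0.22 and 1.46 for Smoc1 and -0.24 and 0.82 for Synpo2, in BCR/ABL and heterozygous precursors. With the replicate block none of the 5 passed.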

How the results depend on the processing

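The counts changed with the scaling, with the Xist level as a covariate and with single arrays left out, and the cause was not tested. Calls, 5217 as reported, were 3410 after cyclic loess, 1058 with the Xist covariate, 3200 at matched brightness, 1161 at matched brightness with the Xist covariate and 1786 at an absolute change of at least 0.5, and 2247 to 5831 with 1 array left out (3652, 2131 and 1274 at matched brightness without BCR/ABL array 1, 2 and 3). Higher calls, 2265 as reported, were 1503 after median centring, 982 without the dimmest 2 bands, 251 with the Xist covariate, 335 at matched brightness with the Xist covariate and 151 at an absolute change of at least 0.5, and 781 to 2679 with 1 array left out (1905, 993 and 615 at matched brightness without BCR/ABL array 1, 2 and 3). Lower calls, 2952 as reported, were 1592 after quantile normalization, 1777 after cyclic loess, 1816 on all 24 arrays, 807 with the Xist covariate, 1627 at matched brightness, 826 at matched brightness with the Xist covariate and 1635 at an absolute change of at least 0.5, and 1466 to 3300 with 1 array left out (1747, 1138 and 659 at matched brightness without BCR/ABL array 1, 2 and 3). Lower calls in the brightest band, 29.4% as reported, were 11.3% after quantile normalization, 11.3% after cyclic loess, 7.54% with the Xist covariate, 10.5% at matched brightness and 8.01% at matched brightness with the Xist covariate, and 14.2% to 32.8% with 1 array left out (11.8%, 7.85% and 4.07% at matched brightness without BCR/ABL array 1, 2 and 3). Higher calls in the dimmest band, 8.53% as reported, were 1.12% after quantile normalization, 3.23% after median centring, 1.04% after cyclic loess, 17.7% with array weights, 15.6% with an intensity trend in the spread, 5.09% with the replicate block, 0.13% with the Xist covariate, 1.17% at matched brightness, 0.0782% at matched brightness with the Xist covariate and 4.54% with 10 bands, and 1.72% to 11.2% with 1 array left out (2.14%, 0.678% and 0.443% at matched brightness without BCR/ABL array 1, 2 and 3). Lower mitotic genes, 27 as reported, were 10 after quantile normalization, 8 after cyclic loess, 47 on the 7 arrays alone, 45 with the Xist covariate, 6 at matched brightness and 45 at matched brightness with the Xist covariate, and 5 to 34 with 1 array left out (11, 2 and 0 at matched brightness without BCR/ABL array 1, 2 and 3).

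These values changed sign. The median of pre-BCR and BCR signalling, -0.042 as reported, was 0.0019 after quantile normalization, 0.033 after cyclic loess, 0.12 with the Xist covariate, 0.079 at matched brightness, 0.16 at matched brightness with the Xist covariate, and 0.12, 0.062 and 0.074 at matched brightness without BCR/ABL array 1, 2 and 3. The median of IL-7, JAK and STAT5, -0.10 as reported, was 0.022 after quantile normalization, 0.012 after cyclic loess, 0.0081 with the Xist covariate, 0.056 at matched brightness, 0.035 at matched brightness with the Xist covariate, and 0.034, 0.044 and 0.0076 at matched brightness without BCR/ABL array 1, 2 and 3. The median of ERK feedback, 0.027 as reported, was -0.014 without the dimmest 2 bands, -0.037 at matched brightness with the Xist covariate, and -0.0054 to 0.066 with 1 array left out. The median of PI3K, AKT and FOXO, -0.091 as reported, was 0.11 after quantile normalization, 0.091 after cyclic loess, 0.16 with the Xist covariate, 0.13 at matched brightness, 0.23 at matched brightness with the Xist covariate, and 0.16, 0.14 and 0.074 at matched brightness without BCR/ABL array 1, 2 and 3. The median of oxidative phosphorylation, -0.10 as reported, was 0.067 after quantile normalization, 0.064 after cyclic loess, 0.078 at matched brightness, and 0.16 and 0.060 at matched brightness without BCR/ABL array 1 and 2. The change of Abl1, -0.18 as reported, was 0.034 after quantile normalization, 0.022 after cyclic loess, 0.061 at matched brightness, and 0.10, 0.023 and 0.061 at matched brightness without BCR/ABL array 1, 2 and 3. The change of Camp, 0.99 as reported, was -0.12 at matched brightness without BCR/ABL array 1, and -0.36 to 1.74 with 1 array left out. Of 126 described genes past the test, 112 were past it with the same sign at matched brightness and 52 with the Xist covariate, whose sex term rests on heterozygous array 3, and 0 turned sign while past it. Fitted on all 24 arrays, 52 of the 126 calls were lost. At matched brightness without BCR/ABL array 1, 2 and 3, the calls lost were 20, 26 and 51 of the 126. With the replicate number as a block, for arrays that share only a number, 2010 genes were higher and 2492 lower, and 2 of the 126 described calls were lost. Between BCR/ABL and heterozygous precursors, whose pairing by number is not proved, the block gave 0 genes in limma (2606 at an unadjusted p under 0.05). That block tied wild-type arrays by number as well. Leaving out 1 array gave 1 to 134 genes in this contrast. Matched brightness, its combinations and all alternatives of that contrast were chosen after seeing the data. Levels near the background, as in the dimmest band, limit the change that an array can show.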

Other observations

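Gene families that lymphocytes are not known to use were read as a check of the dim end of the array. Of 1021 olfactory receptor genes 207 were higher and 1 lower in BCR/ABL precursors, and 59 and 1 at matched brightness. These are 20.3% higher, against 11% of their bands, and 5.78% against 1.74% at matched brightness, so the share stayed above that of the bands on both scales, and 5 were higher with the Xist covariate. Their mean level was 5.22, 5.39 and 5.25 on the BCR/ABL arrays and 5.10, 5.08, 5.11 and 5.14 on the wild-type arrays. Calls of the family went from 208 to 71, 91, 83, 78 and 71 without BCR/ABL arrays 2 and 3 and wild-type arrays 1, 2 and 3 in turn. Of 44 keratin-associated genes, the family of Krtap10-10, 19 were higher, and 12 at matched brightness (43.2% and 27.3%, against 13.1% and 4.33% of the bands; 0 with the Xist covariate), and they went from 19 to 12 each without BCR/ABL array 3 and wild-type array 3 in turn. Of 166 vomeronasal receptor genes 7 were higher, and 0 at matched brightness (1 lower), where the bands held 9.36% and 1.29% higher, and their calls went from 7 to 18, 0, 3, 0, 0 and 1 without BCR/ABL arrays 1, 2 and 3 and wild-type arrays 1, 2 and 3 in turn.

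Other marker lists moved in few members. Of 16 eosinophil, basophil and mast cell markers 3 rose and 0 fell. Siglecf, a receptor of eosinophils, had 6.97, 6.97 and 6.96 on the BCR/ABL arrays and 6.58, 6.61, 6.51 and 6.66 in wild type, a rise of 0.38 ± 0.055 (adjusted p = 0.00387). Of 30 immediate early genes, which respond to stimuli and to handling of cells, 4 rose and 1 fell (6 and 1 at matched brightness), among them Jund (0.55 ± 0.12, adjusted p = 0.0109), and their calls went from 5 to 9, 3, 2, 2 and 8 without BCR/ABL arrays 1, 2 and 3 and wild-type arrays 3 and 4 in turn. Of 17 stromal and endothelial markers 5 rose and 1 fell, of 18 stem and progenitor markers 4 rose and 1 fell, of 23 antioxidant genes 4 rose and 6 fell (5 and 1 at matched brightness), of 12 megakaryocyte and platelet markers 2 rose and 0 fell, of 21 monocyte and macrophage markers 1 rose and 1 fell, and of 12 plasma cell markers 0 rose and 1 fell. Shares of higher and of lower genes in the same bands were 17.6% and 8.74% for the eosinophil list, 10% and 23.6% for immediate early genes, 14.32% and 16.2% for stroma, 17.4% and 12.6% for progenitors, 6.96% and 25.1% for antioxidant genes, 12.5% and 21.4% for megakaryocytes, 13.6% and 19.1% for monocytes and 8.37% and 24% for plasma cells. With the Xist covariate the higher and lower calls were, in the same order, 0 and 0, 1 and 2, 0 and 0, 0 and 1, 0 and 1, 0 and 0, 0 and 3, and 1 and 0. Leaving out 1 array moved these counts by more than 1.5 times: from 6 to 2, 3 and 3 without BCR/ABL array 3 and wild-type arrays 2 and 3 in turn for stroma, from 5 to 2, 2, 1, 1 and 1 without BCR/ABL arrays 2 and 3 and wild-type arrays 1, 2 and 3 in turn for progenitors, from 10 to 3, 5, 4 and 6 without BCR/ABL array 3 and wild-type arrays 1, 3 and 4 in turn for antioxidant genes, from 2 to 1, 1, 1, 1, 0, 1 and 4 without BCR/ABL arrays 1, 2 and 3 and wild-type arrays 1, 2, 3 and 4 in turn for megakaryocytes, from 2 to 1 each without BCR/ABL array 3 and wild-type arrays 2 and 3 in turn for monocytes and from 1 to 2 without wild-type array 4 for plasma cells.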
